A study of Xenopus laevis with 4 samples.

Results

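The 100 most abundant transcripts of the ectoderm of Xenopus laevis embryos were taken as 1 gene set, out of 31179 genes in the count tables. For each of 4 single-cell RNA-seq (scRNA-seq) libraries the unique molecular identifiers (UMIs, tags that count each captured RNA molecule once) of a gene were summed over all cells and scaled to counts per 1000000 UMIs of that library (CPM). The 100 genes were chosen by their mean CPM over the 4 libraries, as the highest. High expression is therefore the definition of the set and not a result.

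The libraries came from ectoderm explants of late gastrulae (stage 12), each from a pool of 5 embryos. IVF embryos were in vitro fertilized controls, and NT embryos were cloned by moving an endoderm nucleus of a neurula-stage donor into an enucleated egg, a design made to ask how far the transplanted nucleus takes on the epidermal programme. Experiment 1 gave the libraries IVF1 and NT1 and experiment 2 gave IVF2 and NT2, so each condition had n = 2 pooled libraries, and only NT embryos that looked like IVF embryos were used. The tables held 566, 514, 1275 and 1050 cells for IVF1, NT1, IVF2 and NT2.

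Median depth was 27266.5 and 23346 UMIs per cell in experiment 1 and 44371 and 45100.5 in experiment 2, for totals between 16543235 and 58592836 UMIs per library. No cell barcode was shared between libraries (0 of 3405). The 2 experiments differed in depth, and the methods name 2 library chemistries without assigning them to libraries, so experiment, depth and a possible change of chemistry cannot be told apart. Genes carried only the model numbers of the X. laevis annotation, and 0 of the 31179 matched an entry of the RefSeq gene table used here, so genes are given by these numbers without name, function or sequence, and the ectodermal label was not checked against marker genes here.

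In most animal cells a small number of genes supplies a large part of the messenger RNA, chiefly genes for the ribosome, for translation and for the cytoskeleton, whose products every cell needs. Others are abundant only because a specialized cell type makes a great deal of them. The gastrula ectoderm of Xenopus holds both kinds of demand, since it is a superficial epithelial layer over a deep layer from which ciliated cells, ionocytes and basal cells of the epidermis arise. Early embryos also carry RNA laid down in the egg, and X. laevis often keeps a pair of closely related copies of a gene, one in each of its subgenomes, between which short 3' reads can be hard to assign.

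The levels fell steeply with rank. The most abundant transcript, Xelaev18004064m.g, reached 14993, 15735, 16851 and 16381 CPM in IVF1, NT1, IVF2 and NT2. It was at nearly the same level in every library, with a highest value 1.12 times its lowest. The transcript next in rank, Xelaev18006236m.g, had 8765, 10292, 21805 and 20860 CPM.

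Xelaev18006236m.g thus stood below the leading transcript in experiment 1 and above it in experiment 2, so the order of the first pair of transcripts held only within an experiment. Xelaev18009768m.g, next in rank, had 6054, 6500, 12728 and 11900 CPM. Xelaev18045876m.g had 9910, 7671, 8581 and 6572 CPM, higher in IVF than in NT in both experiments, and Xelaev18029462m.g had 4481, 5862, 7852 and 8299 CPM. The order of these 3 also changed from library to library.

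At the lower edge the set had no gap. The members ranked 99 and 100, Xelaev18045888m.g and Xelaev18016915m.g, had mean levels of 1160 and 1148 CPM. The first genes left out, Xelaev18016072m.g and Xelaev18041060m.g, had 1127 and 1108 CPM. A member was among the 100 highest genes of its own library in 84, 89, 91 and 88 cases for IVF1, NT1, IVF2 and NT2. Of the members, 74 were in the 100 highest of all 4 libraries, and 4 entered through 1 library only.

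**Figure D1:**
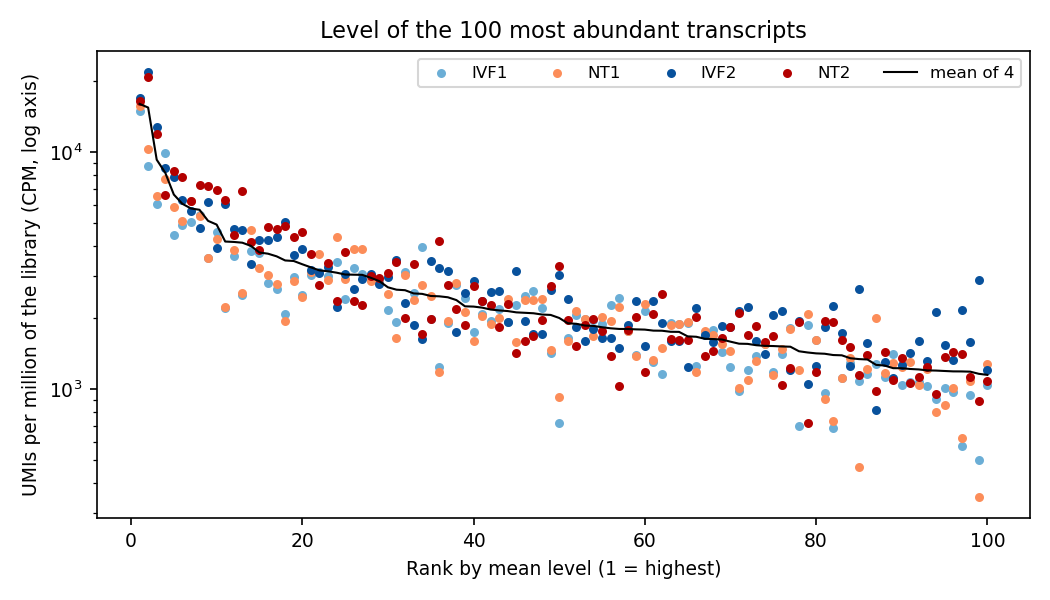
Level of each of the 100 most abundant transcripts (CPM, log axis) against its rank by mean CPM, with a point for each of the 4 libraries and a line through the means. The first 5 transcripts lie between 4481 and 21805 CPM, the curve then flattens, and single members drop far below the rest in some libraries.

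The 100 transcripts took a larger share of the UMIs of a cell in experiment 2 than in experiment 1. The median share over cells was 23.2% in IVF1 and 23.9% in NT1, against 30.3% in both IVF2 and NT2. The lower and upper quartiles were 21.9% and 24.7% in IVF1, 22.8% and 25.4% in NT1, 29.4% and 31.2% in IVF2, and 28.5% and 31.8% in NT2. No quartile range of experiment 1 reached one of experiment 2.

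Within a library the share varied from cell to cell by more than counting error. Its SD over cells was 2.28, 2.59, 1.71 and 2.47 percentage points in IVF1, NT1, IVF2 and NT2. Counting error alone would give 0.289, 0.309, 0.245 and 0.255. The lowest cells had 12.4%, 12.9%, 20.5% and 16.9%, and the highest 30.0%, 28.9%, 34.0% and 37.8%. The share changed only slightly with the depth of the cell: from the shallowest to the deepest of 4 equal groups of cells its median went from 23.4% to 24.4% in IVF1, from 24.1% to 25.1% in NT1 and from 29.8% to 30.7% in IVF2, but from 31.8% to 30.6% in NT2. The part of depth in the gap between experiments was not tested.

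NT and IVF libraries of the same experiment were close in this measure. NT minus IVF was 0.631 percentage points in experiment 1 and -0.0486 in experiment 2. The mean of the library medians was 27.1% ± 4.54 (SD, n = 2) in NT and 26.8% ± 5.02 (SD, n = 2) in IVF, a difference of 0.291 percentage points (two-sided exact permutation test, p = 1). The difference between experiments was 6.77 percentage points, from 23.6% ± 0.446 to 30.3% ± 0.0344 (SD, n = 2 each; exact permutation p = 0.333). That p is the smallest that 2 against 2 libraries allow, since there are only 6 ways to split them. The permutation ignored the pairing by experiment. The gap between experiments therefore entered the SDs of NT and IVF, and the test of NT against IVF could not decide on a small difference.

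Part of the gap between experiments lay at the very top. The 5 leading transcripts took 4.31% and 3.85% of the UMIs of the median cell in IVF1 and NT1 and 6.65% and 6.42% in IVF2 and NT2. The next 100 genes by rank took 8.18%, 8.49%, 9.30% and 9.02% in the same order, a narrower spread. Since a gene could enter the set through 1 experiment, the share was also taken on the 100 highest genes of each library by itself, and it was 24.4%, 24.99%, 30.7% and 30.4% of all UMIs.

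**Figure D2:**
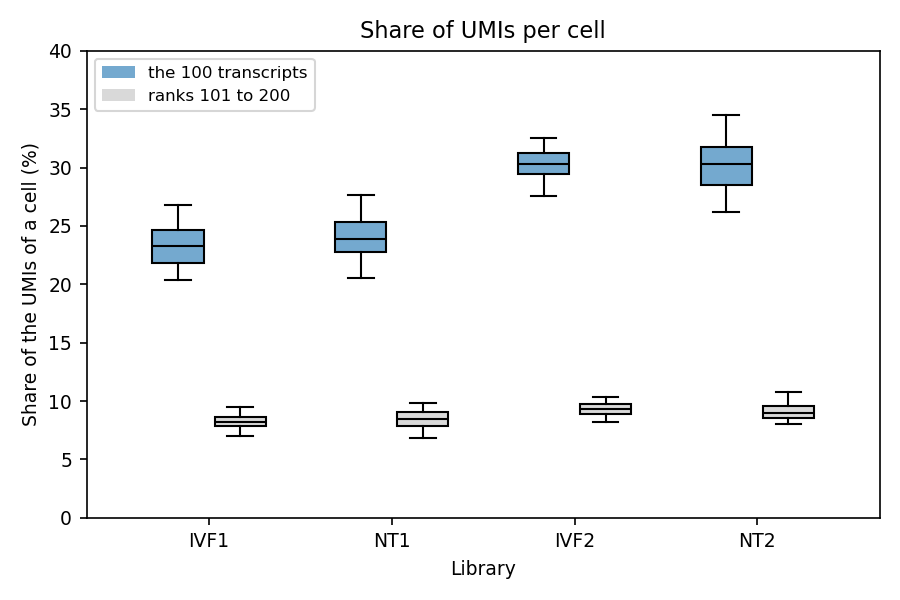
Share of the UMIs of a cell that fell on the 100 most abundant transcripts (percent), in each of the 4 libraries, beside the same for the next 100 genes (grey). Boxes span the quartiles of the cells with the median as a line, and whiskers run from the 5th to the 95th percentile. The 2 libraries of experiment 1 centre on 23.2% and 23.9% and both libraries of experiment 2 on 30.3%, with little overlap between experiments.

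Single members were about as stable between libraries as less abundant genes. The highest of the 4 library levels was a median of 1.56 times the lowest over the 100 members, with quartiles of 1.31 and 2.00, and a median of 1.62 times over the next 900 genes by rank. A range of 2-fold or more was found in 25 of 100 members and in 28.1% of those 900 genes. Most of this lay between experiments: the median absolute log2 ratio was 0.09 for NT1 to IVF1 and 0.18 for NT2 to IVF2, but 0.46 for IVF2 to IVF1 and 0.49 for NT2 to NT1. A change of 1.5-fold or more was seen in 3 and 10 members between NT and IVF of the same experiment, and in 44 and 38 members between experiments of the same condition. Of the next 900 genes 24 and 83 changed as much between NT and IVF, and 404 and 358 between experiments. The members were thus near the general rate.

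NT against IVF showed no member past the test. In edgeR's quasi-likelihood test on the UMIs summed per library, with the experiment as a block, 0 of 100 members had an adjusted p under 0.05 (Benjamini-Hochberg over 18674 genes), as did 0% of all genes tested. At an unadjusted p under 0.05 there were 5 members, all of them lower in NT, beside 6.66% of all genes. That direction depended on the scaling: scaled to the library total there were 10, 4 of them higher in NT, beside 6.65% of all genes. DESeq2 on the same counts called 2 members, both lower in NT, where it called 0.584% of all genes.

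The changes were small for most members. The fitted log2 fold change was within 0.25 of 0 for 76 of 100 members, with a median of -0.08 against 0.01 over all genes tested. By CPM, 28 members were higher and 29 lower in NT in both experiments, and 43 went opposite ways, none of these by 1.5-fold or more in both. All 100 members passed the filter on low counts, and the fit had 1 residual degree of freedom.

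The largest differences were on the low side. Xelaev18043119m.g had 1083 and 467 CPM in IVF1 and NT1, and 2652 and 1150 CPM in IVF2 and NT2. It was lower in NT in each experiment, although NT2 stood above IVF1. In such sums over a library, fewer cells with a transcript and less of it per cell cannot be told apart. Cell by cell, 19 of 566, 160 of 514, 15 of 1275 and 161 of 1050 cells had no UMI of it in IVF1, NT1, IVF2 and NT2. Its level among the cells rich in the uneven members is given further on. The log2 fold change of Xelaev18043119m.g was -1.29 (SE 0.18) with an adjusted p of 0.151 in edgeR and 0.000238 in DESeq2.

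Xelaev18045888m.g had 503 and 352 CPM in IVF1 and NT1 and 2891 and 893 CPM in IVF2 and NT2. Only its IVF2 level was above the mean level of the member ranked last, so it belonged to the set through IVF2. Its place among the largest falls in NT is therefore not independent of the choice of the set. Its log2 fold change was -1.19 (SE 0.30; adjusted p = 0.391 in edgeR, 0.0408 in DESeq2). When IVF2 was left out, in a fit that then had no block, it turned to 0.66 and that of Xelaev18043119m.g shrank to -0.07. That fit sets both NT libraries against IVF1, so the difference between experiments enters it. In the full fit this difference was 2.48 for Xelaev18045888m.g and 1.85 for Xelaev18043119m.g on the log2 scale. The fit without IVF2 can therefore not decide how far either fall rests on IVF2. Both genes are among the members most uneven over cells described further on.

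The largest differences on the high side were smaller. Xelaev18007761m.g had 1275 and 1986 CPM in IVF1 and NT1, and 819 and 981 CPM in IVF2 and NT2, for a log2 fold change of 0.37 (SE 0.20; edgeR adjusted p = 0.813). Xelaev18006949m.g had 1155 and 1489 CPM in experiment 1 and 1894 and 2513 CPM in experiment 2, for 0.31 (SE 0.17; edgeR adjusted p = 0.830). Neither passed in any alternative fit on all 4 libraries. The second changed sign when IVF1 or NT2 was left out, in fits without a block, which the difference between experiments enters.

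**Figure D3:**
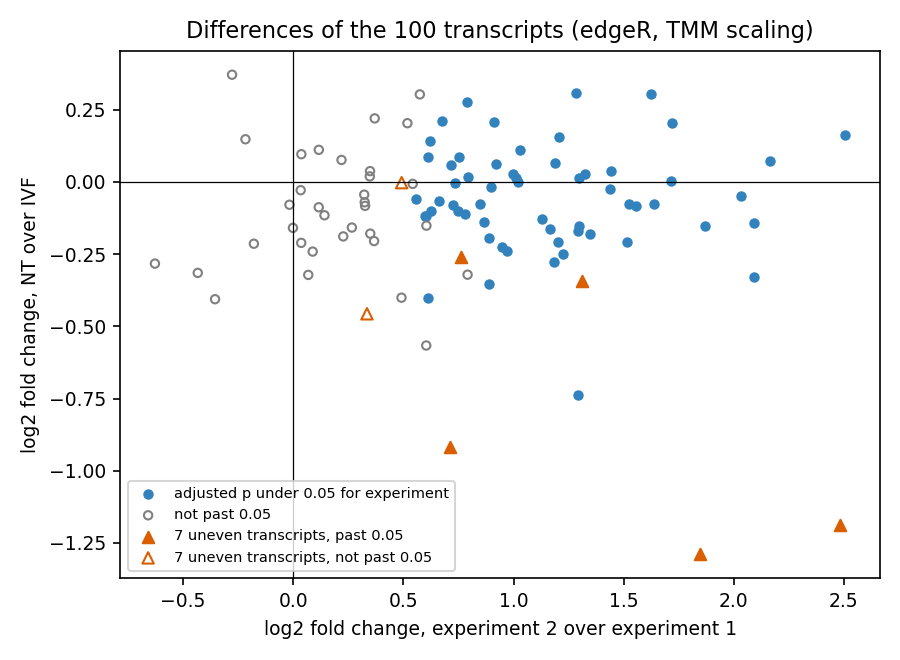
Fitted log2 fold changes of the 100 members, experiment 2 against experiment 1 (horizontal) and NT against IVF (vertical), from the edgeR fit with trimmed-mean scaling. Filled points passed for the experiment, and triangles are the 7 members uneven over cells. The spread along the experiment axis is wide and mostly above 0, with 64 members past the test, while 76 members lie within 0.25 of 0 for NT against IVF.

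The experiments differed far more. With edgeR's trimmed-mean (TMM) scaling, 64 of 100 members passed for experiment 2 against experiment 1, all higher in experiment 2, where 17.1% of all genes tested passed as higher and 13.1% as lower. The log2 fold changes of these 64 ran from 0.56 to 2.51, and 35 exceeded 1. DESeq2 called 61, all higher, of which 60 were shared with edgeR. Of the 18674 genes tested it called 2986 as higher and 1890 as lower. The set was chosen by mean CPM over both experiments, so a gene could enter through a high level in 1 of them. The counts of members are therefore not independent of that choice, and its part was not separated.

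The split of directions depended on the scaling. When libraries were scaled to their total UMIs, the median of all genes moved to -0.56 and 53 members passed, 38 higher and 15 lower in experiment 2, beside 8.08% of all genes higher and 32.1% lower. The median member was 0.77 above the median of all genes on the log2 scale, a distance that scaling leaves in place by its construction. The choice of the set by the same levels enters this distance too. The median log2 fold change of the members changed little when a library was left out. Under TMM scaling it was 0.75 without IVF1, 0.78 without NT1, 0.68 without IVF2 and 0.89 without NT2, against 0.76 in the full fit. Such a fit measures spread between libraries only in the experiment that keeps its pair. How many genes pass then depends on how close that pair was, and cannot decide whether the difference needs a given library. The test also rested on experiment 1 having both its libraries: without IVF1, or without NT1, 0 members passed in edgeR, beside 0% and 0.0696% of all genes. At an unadjusted p under 0.05 there were 49 and 53 members, beside 21.2% and 22.5% of all genes. Without IVF2 69 members passed in edgeR, beside 34.9% of all genes, and without NT2 82, beside 46.7%, so the rate over all genes moved with the library left out as well.

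Xelaev18007559m.g showed the largest rise, from 721 and 924 CPM in IVF1 and NT1 to 3032 and 3306 CPM in IVF2 and NT2. The levels of the 2 experiments were far apart and those within an experiment were close. Its log2 fold change was 2.51 (SE 0.19; edgeR adjusted p = 0.00125). Xelaev18045888m.g, given above, rose by 2.48 (SE 0.31; edgeR adjusted p = 0.00282), but its libraries were uneven, with NT2 at 893 CPM and IVF2 at 2891.

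No member passed as lower under TMM scaling, and 1 was lower at an unadjusted p under 0.05 in edgeR. The lowest were Xelaev18040507m.g, with 1870, 2069, 1052 and 717 CPM in IVF1, NT1, IVF2 and NT2, and Xelaev18003734m.g, with 3994, 2746, 1634 and 1715 CPM. Both had lower levels in each library of experiment 2 than in either library of experiment 1. Under TMM scaling their log2 differences were -0.63 (SE 0.23; edgeR adjusted p = 0.0718) and -0.43 (SE 0.19; edgeR adjusted p = 0.119). Scaled to the library total they were -1.18 and -0.98, with edgeR adjusted p of 0.00391 and 0.00486, so both passed there.

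Most members were found in nearly every cell. At least 1 UMI was present in every cell of a library for 81, 67, 85 and 77 members in IVF1, NT1, IVF2 and NT2, and in every cell of all 4 libraries for 49. With every cell thinned to 6000 UMIs, 90 of 100 members were still found in at least 90% of cells in all 4 libraries, compared with 17.2% of the next 900 genes. Those 900 genes are less abundant by definition. Detection in most cells follows largely from the high level that defined the set, so this contrast is not a separate result. RNA released from other cells can give such UMIs too, and because no cell type could be named, no background share was available to set beside these values.

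Evenness over cells was measured as overdispersion, the variance between cells beyond counting error, relative to the squared level given by the depth of each cell. It is 0 for a gene that takes the same share of every cell and 1 when that share varies with an SD as large as its mean. The median over the members was 0.0788, against 0.0701 for the next 900 genes, so high abundance did not go with greater evenness. Of the members, 62 were below 0.1, beside 66.6% of the other 900 genes.

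The evenest members held a narrow range of levels. Xelaev18041485m.g, with a median overdispersion of 0.0148, ran from 1632 to 2984 CPM (IVF1), 1444 to 2580 (NT1), 1976 to 2986 (IVF2) and 1467 to 2340 (NT2) between the cells at the 10th and the 90th percentile. Its range was less than 2-fold in every library. Xelaev18038881m.g and Xelaev18011433m.g, at 0.0165 and 0.0176, had a UMI in every cell of all 4 libraries, as did Xelaev18041485m.g.

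Members with a value of at least 0.5 in all 4 libraries were called uneven. There were 7 of 100, where the background over the next 900 genes was 5.22%, so uneven genes were about as common among the members as below them. At a minimum of 1 in place of 0.5 there were 3.

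The most uneven, Xelaev18045888m.g, had an overdispersion of 1.28, 2.98, 2.35 and 2.63 in IVF1, NT1, IVF2 and NT2. The tenth of cells richest in it held 38.5%, 64.6%, 42.7% and 53.8% of its summed CPM, and 87 of 566, 186 of 514, 29 of 1275 and 308 of 1050 cells had no UMI of it. For Xelaev18043105m.g the overdispersion was 1.32, 2.44, 2.19 and 2.21. The tenth of cells richest in it held between 34.3% and 54.6% of its summed CPM, so it too was concentrated in part of the cells.

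Xelaev18043119m.g followed with 1.14, 2.60, 2.03 and 2.04. Xelaev18045889m.g had 0.79, 1.11, 1.44 and 1.46. Xelaev18016082m.g had 0.69, 0.98, 1.57 and 1.45. All 5 were lowest in IVF1, where a larger share of cells had a high level of them.

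The other uneven members, Xelaev18016668m.g and Xelaev18045876m.g, are named here because they complete the 7. Xelaev18045876m.g, ranked 4 by mean level, was the most abundant of them and the least uneven, at 0.53, 0.65, 0.53 and 0.82. It was found in every cell of IVF1, NT1 and IVF2 and in all but 3 cells of NT2. Even so its level ran from 1359 to 19048 CPM (IVF1), 585 to 16589 (NT1), 2786 to 18975 (IVF2) and 312 to 15811 (NT2) between the cells at the 10th and the 90th percentile. A transcript present in nearly every cell thus differed widely in level between cells.

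**Figure D4:**
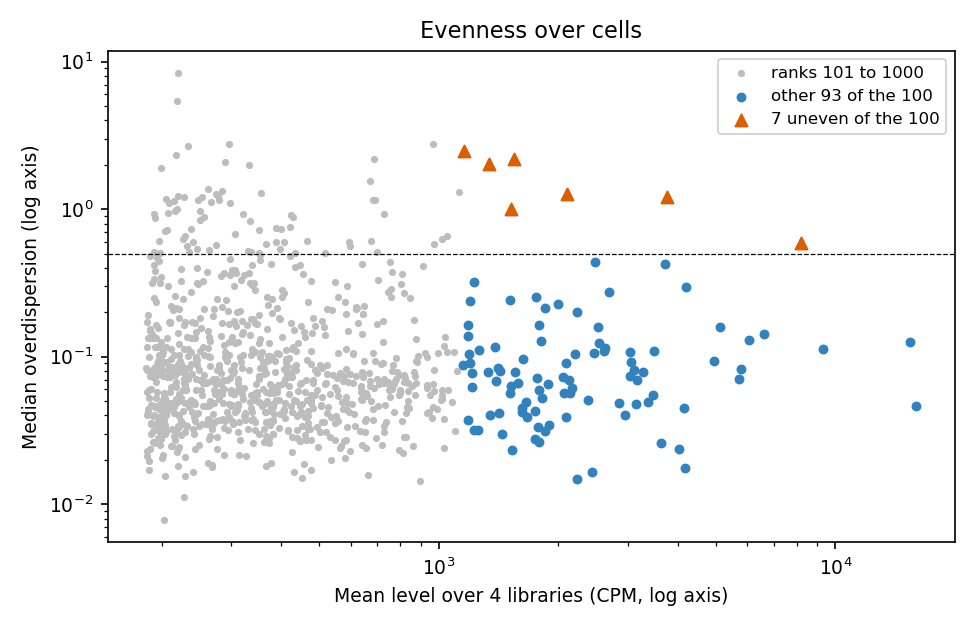
Median overdispersion over the 4 libraries (log axis) of the 100 members and of the next 900 genes (grey) against mean level in CPM (log axis), with the 7 uneven members as triangles and the minimum of 0.5 as a dashed line. The members have a median of 0.0788, within the range of the less abundant genes, and 7 reach the minimum of 0.5 in all 4 libraries.

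Unevenness did not pass a test between NT and IVF. In limma on the log2 overdispersion, with the experiment as a block, 0 of 100 members had an adjusted p under 0.05, beside 0% of the 1819 genes tested, and the lowest adjusted p of a member was 0.576. At an unadjusted p under 0.05 there were 11 members, all more uneven in NT, beside 8.14% of all genes tested. The value was higher in NT for 72 of 100 members, with a median log2 difference of 0.42 against 0.19 over all genes tested. Without NT2 it was higher for 57, with a median of 0.14 against -0.02, and without IVF2 the medians were 0.33 and 0.32. Without IVF1 they were 0.40 and 0.06, and without NT1 0.39 and 0.36. With all 4 libraries but without the block, the unadjusted count was 2 members, beside 25 of the 1819 genes tested. The order of the members by unevenness was broadly alike between libraries, with Spearman correlations over the 100 members between 0.570 and 0.882.

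The 7 uneven members varied together. In the libraries of experiment 1, whose residuals around the depth of each cell set the grouping, all 7 fell in 1 group, with a mean pairwise correlation over cells of 0.727 in IVF1 and 0.679 in NT1. The libraries of experiment 2 did not set the grouping, but they helped to choose the 7, which had to be uneven in all 4 libraries. They are therefore not an independent check. In them the mean over the same 21 pairs was 0.908 in IVF2 and 0.774 in NT2, and the lowest pair had 0.845 and 0.564. Pairs among the other 93 members ran both ways, from -0.812 to 0.910 over the 4 libraries, and 42.5%, 41.7%, 50.1% and 30.9% of them were over 0.2 in IVF1, NT1, IVF2 and NT2. Correlated variation was thus not limited to the 7. These values describe cells that share a library and a range of depths, and some of the 7 may be related copies whose reads are hard to separate, which could not be looked up.

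The 7 took very different shares of cells. A minimum of 1.5% of the UMIs of a cell, set after the distribution was seen, gave 328 of 566 cells as high in IVF1, or 58.0% (exact Clopper-Pearson 95% interval 53.8 to 62.1). It gave 38.1% (33.9 to 42.5) in NT1, 34.7% (32.1 to 37.4) in IVF2 and 41.4% (38.4 to 44.5) in NT2. IVF1 stood apart, and NT was below IVF in experiment 1. In experiment 2 NT was 6.68 percentage points above IVF at this minimum but only 1.09 above it at a minimum of 1%. The intervals cover counting error only, and each share comes from 1 pooled explant library.

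The part of cells near the minimum differed between libraries. Between 1% and 2% lay 11 cells of IVF1, 27 of NT1, 121 of IVF2 and 65 of NT2. As a share of the cells of each library these were 1.94%, 5.25%, 9.49% and 6.19%, so NT1 and NT2 were close. In IVF2 most of these cells lay at the low end of this range, beside the large part of cells below 1%, and few cells lay just above it. The share in this range is therefore not by itself a measure of how well high and low cells were separated. The median share on the 7 was 3.41%, 2.85%, 6.41% and 3.64% in high cells and 0.289%, 0.225%, 0.675% and 0.159% in low cells. Median depth was 24592.5, 25221, 45077 and 46636 UMIs in high cells and 28046, 23300.5, 43914 and 43260 in low cells, with no common direction.

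**Figure D5:**
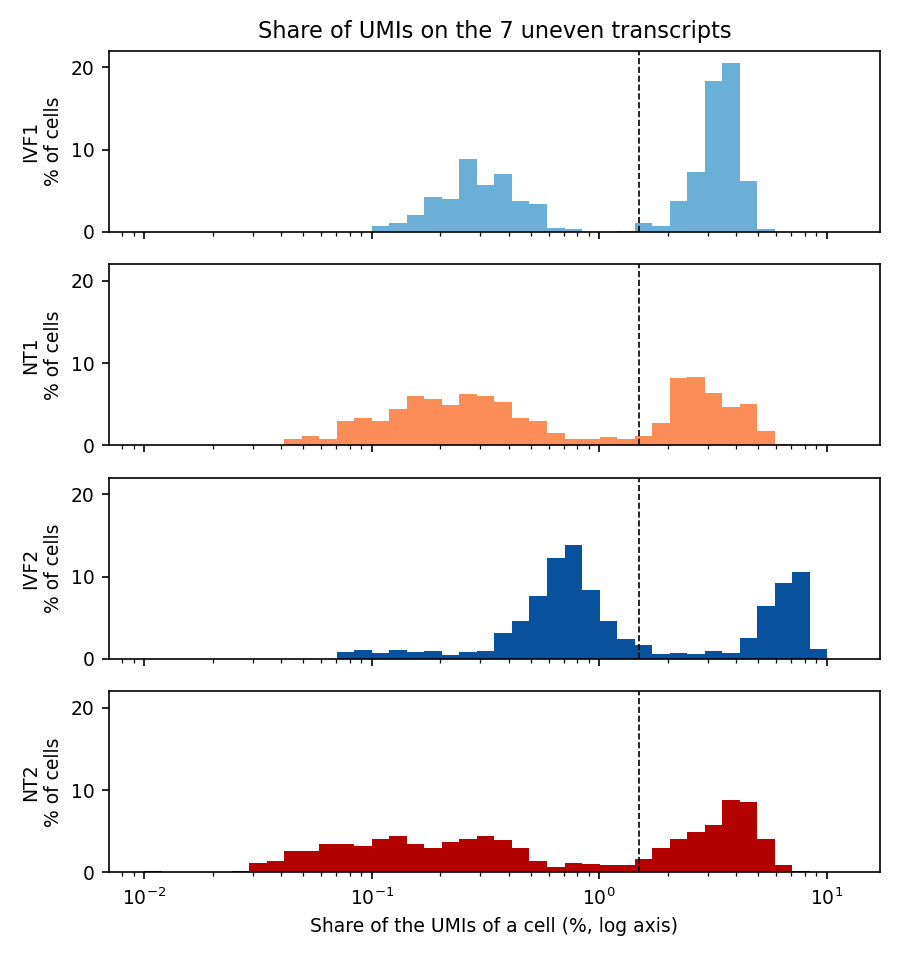
Distribution over cells of the share of UMIs on the 7 uneven members (percent of the UMIs of a cell), as the percent of cells in each bin of a log axis, for each of the 4 libraries, with 1.5% as a dashed line. Every library has a large part of its cells below 1% and a second part spread up to several percent, and the part above 1.5% is 58.0%, 38.1%, 34.7% and 41.4% of cells in IVF1, NT1, IVF2 and NT2.

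The make-up of the 7 also differed between the cells. Xelaev18045876m.g gave 47.8%, 46.2%, 27.0% and 35.9% of their summed UMIs in high cells but 62.8%, 67.5%, 68.5% and 66.4% in low cells. How much free RNA adds to the low cells was not tested. Since the 7 genes defined the split, their own ratios between high and low cells are part of its definition.

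The other 93 members were read against the same split. Their joint share of UMIs was 19.5%, 21.7%, 23.1% and 25.3% in high cells and 23.2%, 23.3%, 30.0% and 30.9% in low cells, lower in high cells in all 4 libraries. With the 7 added, the share on all 100 was 23.0% and 23.5% in high and low cells of IVF1, 24.8% and 23.5% in NT1, 29.6% and 30.7% in IVF2, and 29.1% and 31.1% in NT2. The totals of high and low cells were thus much closer than their shares on the 7. A larger share on the 7 also leaves fewer UMIs for every other gene, and that part was not separated.

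Many of the 93 varied with or against the 7 over cells, and more went against them. Their correlation with the residual of the summed UMIs of the 7 was over 0.2 in all 4 libraries for 10 of them and under -0.2 for 39, and over 0.5 for 6 and under -0.5 for 13. In level, fewer stood far apart: it was at least 1.5 times higher in high cells in all 4 libraries for 5 of them and at least 1.5 times lower for 6. These counts were not taken for genes outside the set, so whether they are particular to the members was not tested. Xelaev18035740m.g had 1181, 1051, 1068 and 1889 CPM in the high cells of IVF1, NT1, IVF2 and NT2 and 4847, 4911, 5955 and 7188 CPM in the low cells. It was the clearest opposite of the 7, with correlations over cells of -0.91, -0.85, -0.89 and -0.86 with the residual of their summed UMIs. Xelaev18024336m.g went the other way, with 2897, 3768, 4418 and 4834 CPM in high cells and 1242, 1354, 2195 and 1685 CPM in low cells.

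Both of these genes, named after their values were seen, kept their direction in every library, in IVF and in NT. Smaller differences were common: 49 of the 93 were lower and 13 higher in the high cells of all 4 libraries, and 31 changed direction between libraries. For these counts, too, no share over all genes was available. Within high cells alone, edgeR called 0 of the 93 between NT and IVF, where 0.0724% of all genes passed, and at an unadjusted p under 0.05 there was 1, lower in NT, beside 7.86% of all genes. Within low cells it also called 0, where 0.381% of all genes passed, and at an unadjusted p under 0.05 there were 7, all lower in NT, beside 7.35% of all genes, which is about the same rate.

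The share of high cells and the level of the 7 went the same way between NT and IVF only in experiment 1. The 7 took 2.03%, 1.59%, 2.52% and 1.72% of all UMIs in IVF1, NT1, IVF2 and NT2. In experiment 1 NT was lower in both measures. In experiment 2 NT had more high cells but a lower level, and IVF2 had the highest level of the 4 libraries. Of the 7, 4 were lower in NT at an unadjusted p under 0.05 in edgeR, and none passed after adjustment. Over all genes tested 6.66% were below that level in either direction. These 4 are among the 5 such members given above. The 7 vary together over cells, so the 4 are not separate results. Xelaev18016668m.g had a log2 fold change near 0, at -0.003 with TMM scaling and 0.08 scaled to the library total. IVF1 had the largest share of high cells at minima of 1%, 1.5% and 2%, and the order of the other libraries changed with the minimum. Within high cells Xelaev18043119m.g had 1806 and 918 CPM in experiment 1 (IVF1, NT1) and 7119 and 2493 CPM in experiment 2 (IVF2, NT2). Xelaev18045888m.g had 867, 693, 8066 and 1974 CPM there. Both were lower in NT also among high cells of the same experiment, where NT2 stood above IVF1. Both are among the 7 whose UMIs define the high cells, so these levels depend on the split. They cannot decide between fewer cells with the transcript and less of it per cell.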

How the data were processed

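Single-cell 3' UMI counts were measured in 4 ectoderm libraries (2 IVF, 2 NT; 2 experiments). The authors deposited raw UMI counts per gene and cell. Their notes name Cell Ranger 2.2.0; the methods describe STAR alignment to X. laevis genome v9.1, a forced number of cells and a minimum of 6000 UMIs and 2000 genes per cell. Libraries ranged from 16543235 to 58592836 UMIs.

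CPM, shares and overdispersion were computed from these counts in Python 3.11.15. Doublets were called with Scrublet in scanpy 1.11.5 (5% expected; 55 of 3405 cells, 1.62%) and kept in the main analysis. UMIs summed per library were tested with edgeR 4.0.16 in R 4.3.3 (TMM, filterByExpr, quasi-likelihood F test, experiment and treatment as terms, 1 residual degree of freedom). DESeq2 1.42.0 was an alternative. Unevenness was tested with limma 3.58.1 on log2(overdispersion + 0.01) over genes of at least 100 CPM. Adjusted p-values are Benjamini-Hochberg over all genes tested, with a threshold of 0.05.

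Replicate numbers in the labels were taken as the experiments of the study, so experiment was a block. As a check, the log2 difference between experiments in IVF correlated with that in NT with r = 0.802 over 8524 genes. Scripts were tested on simulated data.

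Genes were named by rule: the first 5, those at the lower edge, the largest changes in each direction whose sign held in both experiments or both conditions, and the most and least uneven. Members, rules and lists were chosen with earlier results of these data known. Alternatives covered the ranking rule, scaling, filtering, thinning, cells over 10000 UMIs, doublets and leaving out each library. Libraries were single pools, so the p-values hold little information on the spread between pools. To the 1 residual degree of freedom edgeR added 6.875 prior degrees of freedom estimated over all genes. Its p-values thus rest largely on a spread shared between genes, and DESeq2 and limma also share spread between genes.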

Additional observations from a re-analysis of the deposited data

Results flagged for a closer look

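The share of cells high for the 7 uneven transcripts was -19.8 percentage points in NT1 minus IVF1 and 6.68 percentage points in NT2 minus IVF2, in opposite directions. With a minimum of 1% in place of 1.5% these differences were -18.0 and 1.09 percentage points, and with 2% they were -21.3 and 4.39. The median share of UMIs on the 100 transcripts was 0.631 percentage points in NT1 minus IVF1 and -0.0486 percentage points in NT2 minus IVF2. The opposite sign did not hold for the mean over cells, with 0.574 and 0.0865 percentage points. Each side rests on 1 library per condition, so the difference between experiments was not tested.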

How the results depend on the processing

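NT against IVF gave 0 members called by edgeR and 2 by DESeq2, 3 without the filter on low counts and 1 in low cells only (a gene that defined the split, chosen after seeing the data), all lower in NT. Without the replicate block, edgeR called 0 members, and 0 at an unadjusted p under 0.05. Of the 18674 genes tested it then called 0, and 186 were under 0.05 unadjusted. Over all genes the counts were 0 with edgeR, 109 with DESeq2 and 437 without the filter. Without IVF1, NT1, IVF2 and NT2 in turn, the median log2 fold change of the members was -0.42, 0.18, 0.42 and -0.51. Over all genes tested it was 0.05, -0.07, 0.03 and -0.03. The difference between experiments enters each of these fits. Xelaev18045888m.g ranged from -2.84 to 0.66 and Xelaev18006949m.g from -0.47 to 1.10 on the log2 scale when 1 library was left out.

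For experiment 2 against 1, leaving out each library gave 0 to 82 members called, 0 to 82 of them higher and 0 to 3 lower. Scaling to the library total gave 38 higher and 15 lower, beside 1509 and 6001 of the 18674 genes tested. Scaling to UMIs outside the set gave 42 and 9, beside 1711 and 4828 of the 18674 genes. The lower count was 1 without the filter, beside 2819 of 27451 genes. In low cells it was also 1, where 5478 of 16809 genes passed in either direction.

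With 50 genes in place of 100, the median share of UMIs was 16.3%, 16.9%, 21.96% and 22.7%, and with 200 genes 31.4%, 32.5%, 39.7% and 39.3%, in IVF1, NT1, IVF2 and NT2. Other ranking rules kept 95 to 99 of the 100. An overdispersion minimum of 1 left 3 uneven members. Minima chosen after seeing the data gave 42.4% and 43.5% high cells in IVF2 and NT2 at 1%, and 32.9% and 37.3% at 2%.

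Limits were n = 2 pools per condition, unnamed genes, and depth that differed between experiments. Fits without 1 library drop the other term of the model.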
